A study of Homo sapiens with 8 samples.

Results

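The Krüppel-like factors (KLFs) measured here were 9 members of the family, KLF2, KLF3, KLF4, KLF5, KLF6, KLF9, KLF10, KLF11 and KLF13, taken with every array probe annotated to 1 of those symbols. They were 9 of the 16922 named genes on the array and had 12 probes among the 24531 there. Of these, 8 probes passed the detection filter (detection p below 0.01 on at least 2 arrays), and they gave 6 of the 9377 genes and probes tested: KLF2, KLF6, KLF9, KLF10, KLF11 and KLF13. The members were chosen by their log2 changes after silencing, which were already known, so those changes are given below as a description without p-values. Differences between the cell lines were not part of that choice and were tested. They share their arrays with the silencing changes, so their p-values for the members are not independent of the choice. RNA came from TOV-21G cells with CSE1L siRNA, TOV-21G cells with control siRNA, SK-OV-3 cells with CSE1L siRNA and SK-OV-3 cells with control siRNA, all collected 72 h after transfection, with 2 Illumina arrays in each of the 4 groups. Both are established human ovarian cancer cell lines, the control siRNA was a scrambled sequence, and CSE1L encodes the exportin that carries importin alpha back out of the nucleus. The arrays carry experiment numbers 1 and 2 and no other label of origin, so the p-values below reflect only how far these arrays scatter, which may be technical. The labels name no siRNA sequence, and an effect of CSE1L loss and one of the siRNA itself cannot be told apart.

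KLFs are transcription factors that bind GC boxes and CACCC elements through a cluster of zinc fingers at the C-terminus, and their more variable N-terminal parts recruit activators or repressors. Several are early-response or growth-control genes in epithelial cells. KLF6 is widely studied as a tumour suppressor whose splice forms differ in function, KLF4 and KLF5 mark differentiating and proliferating epithelium, and KLF10 and KLF11 are TGF-beta inducible repressors that bind SIN3A. KLF2 is best known from endothelium and T cells, where a MAP2K5, MAPK7 and MEF2 kinase pathway induces it.

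The promoters of KLF2 and KLF6 are shown because these genes had the widest differences between arrays among the members detected on both arrays of at least 1 group. They are the 250 bases before the annotated start in RefSeq GRCh38.p14, read 5′ to 3′ on the gene's strand, from chr19:16324576-16324825 (plus strand) for KLF2 and chr10:3785210-3785459 (minus strand) for KLF6. Capitals mark GC boxes (GGGCGG on either strand) and, in KLF2, a match to the MEF2 consensus.
KLF2: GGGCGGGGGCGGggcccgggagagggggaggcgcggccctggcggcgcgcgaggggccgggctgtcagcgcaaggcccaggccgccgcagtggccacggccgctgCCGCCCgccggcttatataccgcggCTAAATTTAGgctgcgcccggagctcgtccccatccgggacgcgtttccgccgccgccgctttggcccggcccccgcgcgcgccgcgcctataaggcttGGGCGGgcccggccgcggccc
KLF6: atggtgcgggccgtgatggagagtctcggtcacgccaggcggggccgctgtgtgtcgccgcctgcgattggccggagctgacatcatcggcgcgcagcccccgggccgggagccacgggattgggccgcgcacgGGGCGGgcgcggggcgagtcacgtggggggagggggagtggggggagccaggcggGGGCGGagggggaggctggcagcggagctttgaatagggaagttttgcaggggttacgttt
The KLF2 window was 80.0% G or C and held 4 GC boxes, and its MEF2 match began 120 bases before the start. The KLF6 window was 72.4% G or C and held 2 GC boxes and 2 CCAAT boxes on the opposite strand, and neither window held CACCC. Among 35116 promoter windows of this length, 42.6% had a GC box, 54.7% had CACCC, 32.0% had CCAAT and 2.80% had a MEF2 match, each searched on both strands. Promoter entries were found for 7 of the 9 members. KLF4, KLF11 and KLF13 windows and 1 of 2 KLF5 windows also held GC boxes, and the KLF9 window held 2 CCAAT boxes and no GC box. A match describes the letters only and was not tested as a binding site.

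CSE1L itself had log2 signals of 8.80 and 7.72 in TOV-21G with CSE1L siRNA, against 13.02 and 11.65 with control siRNA, and of 10.51 and 8.99 in SK-OV-3 with CSE1L siRNA, against 12.04 and 12.56 with control siRNA. All silenced arrays lay below the controls of their line. The log2 change was -4.08 (SE 0.63, 16.9-fold lower, limma adjusted p = 0.0257) in TOV-21G and -2.55 (SE 0.63, 5.86-fold lower, limma adjusted p = 0.262) in SK-OV-3. The TOV-21G call was lost without TOV-21G CSE1L siRNA replicate 2 (limma adjusted p = 0.112), TOV-21G control siRNA replicate 1 (0.162) or TOV-21G control siRNA replicate 2 (0.0767). Detected probes numbered 9206 to 9820 per array, median signals were 156 to 202, and replicate arrays correlated at 0.972 to 0.982 over the genes tested. Of 8 epithelial and ovarian carcinoma markers on the array, 6 were detected on all 8 arrays, including KRT8, KRT18 and PAX8, while EPCAM was detected on 0. Of 9 leukocyte, endothelial and fibroblast markers, 6 were detected on 0 arrays, including PTPRC, PECAM1 and COL3A1. The others were COL1A1, detected on all 8 arrays, CD14, on 5 arrays of both lines, and DCN, on 4 arrays, all TOV-21G.

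Among the members detected above background, KLF6 was higher in CSE1L siRNA cells than in control siRNA cells of both lines, and KLF2 was higher in silenced SK-OV-3 cells and below detection in TOV-21G. KLF10 was lower in silenced TOV-21G cells by the probe used for the gene, while the groups of its other detected probe overlapped. In these arrays of whole cell cultures, fewer cells expressing a gene and less RNA per cell cannot be told apart.

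KLF6 is a ubiquitous zinc-finger activator that is induced early after serum or injury and can raise CDKN1A. Its normalized log2 signal was 13.68 and 14.39 in SK-OV-3 with CSE1L siRNA, against 12.76 and 12.34 with control siRNA. Both silenced arrays lay above both control arrays, and the same order stood in the raw bead signals, 10220 and 22061 with CSE1L siRNA against 8645 and 4662 with control siRNA. The means were 14.03 ± 0.50 with CSE1L siRNA and 12.55 ± 0.30 with control siRNA (SD, n = 2 each), a log2 change of 1.49 (SE 0.28) or 2.80-fold.

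In TOV-21G, KLF6 was at 14.34 and 14.28 with CSE1L siRNA, against 13.81 and 13.84 with control siRNA. The silenced arrays again lay above the controls, on a narrower scale, with raw signals of 21253 and 22353 against 13417 and 16822. The means were 14.31 ± 0.04 with CSE1L siRNA and 13.82 ± 0.02 with control siRNA (SD, n = 2 each), a log2 change of 0.49 (SE 0.28) or 1.40-fold. The change in TOV-21G was thus smaller, and the difference between the changes (TOV-21G minus SK-OV-3) was -0.998 (SE 0.397). The SK-OV-3 change lay between 1.13 and 1.83 and the TOV-21G change between 0.46 and 0.54 over the 19 alternatives in processing that were run, and the 2 ends in SK-OV-3 came from leaving out either silenced array. The difference between the lines was -1.35 without SK-OV-3 CSE1L siRNA replicate 1 and -0.64 without replicate 2.

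COL1A1 and CD14, on the list of fibroblast and leukocyte markers, had mean log2 signals of 8.66 and 6.88 in SK-OV-3 with CSE1L siRNA, against 7.53 and 6.04 with control siRNA. CD14 was detected on 0 of the SK-OV-3 control siRNA arrays. The raw signals of the 9 markers on that list summed to 3370 to 4081 in TOV-21G with CSE1L siRNA, against 3111 to 3303 with control siRNA, and to 1706 to 1764 in SK-OV-3 with CSE1L siRNA, against 1457 to 1516 with control siRNA. These sums of signals that were not normalized stood higher on the silenced arrays of both lines, as did KLF6. Of the 9 markers, 6 were detected on 0 arrays, PTPRC, CD3E, PECAM1, CDH5, VWF and COL3A1. Not every marker went up: mean log2 signals were lower after silencing for PTPRC, CD3E and VWF in TOV-21G and for COL3A1 in SK-OV-3. The part of the markers in the KLF values was not tested.

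KLF2, a factor that holds lymphocytes and endothelial cells in a quiescent state, was at 8.70 and 9.34 in SK-OV-3 with CSE1L siRNA, against 7.99 and 7.46 with control siRNA. The groups did not overlap, and the raw signals were 408 and 780 with CSE1L siRNA against 402 and 284 with control siRNA, so in the raw signals the lower silenced array stood just above the higher control. The means were 9.02 ± 0.45 with CSE1L siRNA and 7.73 ± 0.37 with control siRNA (SD, n = 2 each), a log2 change of 1.29 (SE 0.29) or 2.45-fold. The change was 0.92 with no background correction, and the authors' normalized values gave 0.83.

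In TOV-21G the KLF2 probe was detected on 0 of the 4 arrays, with detection p of 0.0150 and 0.0135 with CSE1L siRNA and 0.0271 and 0.0105 with control siRNA. Its raw signals there were 251 and 209 with CSE1L siRNA against 184 and 220 with control siRNA. These ranges overlapped, and no fold is given for a probe below detection in both groups.

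**Figure D1:**
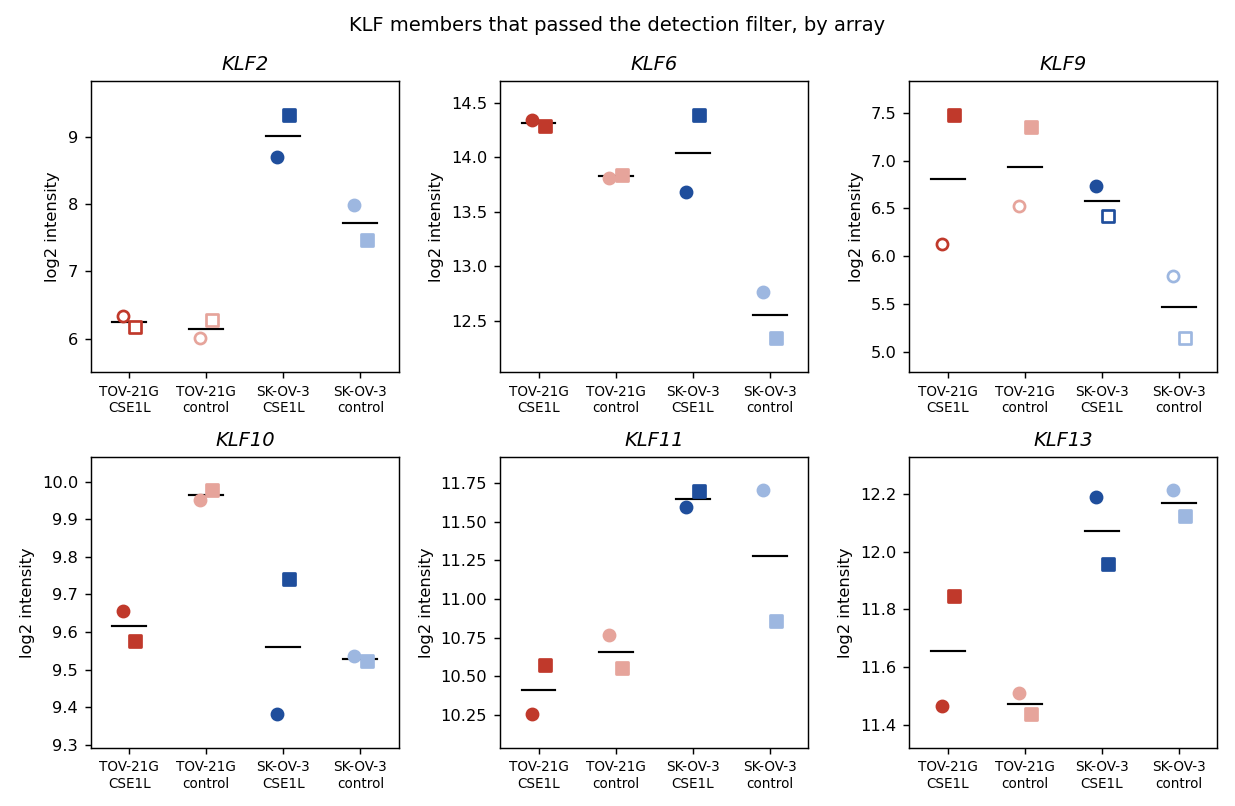
Normalized log2 signal (vertical axis) of the 6 tested members on each of the 8 arrays, 1 panel per gene, with groups along the horizontal axis, bars at the group means and open symbols for arrays on which the probe was not detected. KLF6 in silenced cells lay above the controls in both lines, at 13.68 and 14.39 against 12.76 and 12.34 in SK-OV-3, while KLF2 was filled only in SK-OV-3.

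KLF10 and KLF11, the TGF-beta inducible early genes that repress through SIN3A, showed smaller shifts. KLF10 was at 9.66 and 9.58 in TOV-21G with CSE1L siRNA, against 9.95 and 9.98 with control siRNA, by the probe used for the gene. Both silenced arrays were lower, by 0.35 on average (log2 change -0.35, SE 0.21). In SK-OV-3 it was at 9.38 and 9.74 with CSE1L siRNA, against 9.54 and 9.52 with control siRNA, a change of 0.03 (SE 0.21) with the controls inside the silenced range. Under median scaling the SK-OV-3 value was -0.14, where the median of all genes also moved to -0.15.

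The other detected KLF10 probe gave a change of -0.35 in TOV-21G too, but with overlapping groups, at 9.35 and 8.93 with CSE1L siRNA against 9.72 and 9.25 with control siRNA. In SK-OV-3 that probe was at 8.36 and 9.23 with CSE1L siRNA, against 8.80 and 7.82 with control siRNA, a change of 0.49. The probes thus differed in SK-OV-3, where the groups of the second probe also overlapped. The last KLF10 probe, annotated to another transcript, was detected on 0 of 8 arrays.

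KLF11 was at 10.26 and 10.57 in TOV-21G with CSE1L siRNA, against 10.76 and 10.56 with control siRNA, a change of -0.25 (SE 0.30). In SK-OV-3 it was at 11.59 and 11.70 with CSE1L siRNA, against 11.70 and 10.86 with control siRNA, a change of 0.37 (SE 0.30). The groups overlapped in both lines, and the SK-OV-3 value depended on each control array: it was 0.78 without SK-OV-3 control siRNA replicate 1 and -0.06 without replicate 2. The other KLF11 probe, detected on 4 arrays, gave -0.12 in SK-OV-3.

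KLF9 and KLF13 belong to the basic transcription element-binding group, and KLF9 is a glucocorticoid-induced gene. KLF9 lay near the detection limit, detected on 1 of 2 TOV-21G CSE1L siRNA arrays, 1 of 2 TOV-21G control siRNA arrays, 1 of 2 SK-OV-3 CSE1L siRNA arrays and 0 of 2 SK-OV-3 control siRNA arrays. It was at 6.73 and 6.42 in SK-OV-3 with CSE1L siRNA, against 5.79 and 5.14 with control siRNA. The silenced arrays were the higher ones. The difference of 1.11 is no bound on the fold, since the control signal was below detection, and it was 0.45 with no background correction, while the authors' normalized values gave 0.35. In TOV-21G it was at 6.13 and 7.48 with CSE1L siRNA, against 6.53 and 7.35 with control siRNA, with overlapping groups and a change of -0.13 (SE 0.48) that was -0.81 without TOV-21G CSE1L siRNA replicate 2 and 0.54 without replicate 1.

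KLF13, which drives late CCL5 expression in T lymphocytes, was at 11.46 and 11.85 in TOV-21G with CSE1L siRNA, against 11.51 and 11.44 with control siRNA. In SK-OV-3 it was at 12.19 and 11.96 with CSE1L siRNA, against 12.21 and 12.12 with control siRNA. Silenced and control arrays overlapped in both lines, with changes of 0.18 (SE 0.22) in TOV-21G and -0.10 (SE 0.22) in SK-OV-3, and the SK-OV-3 value was -0.26 under median scaling and 0.021 without SK-OV-3 CSE1L siRNA replicate 2. The TOV-21G value was 0.37 without TOV-21G CSE1L siRNA replicate 1 and -0.0090 without replicate 2.

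KLF3, a CtBP-recruiting repressor, KLF4, a differentiation and reprogramming factor, and KLF5, a growth-promoting factor of basal and crypt epithelium, were each detected on 0 of 8 arrays. Their raw signals were 104 to 142 for KLF3 (lowest detection p 0.295), 113 to 171 for KLF4 (0.194) and 116 to 174 for KLF5 (0.138). The undetected KLF10 probe had signals of 148 to 220 (0.0120). These probes entered no test, and nothing can be read from them on whether the genes were expressed.

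**Figure D2:**
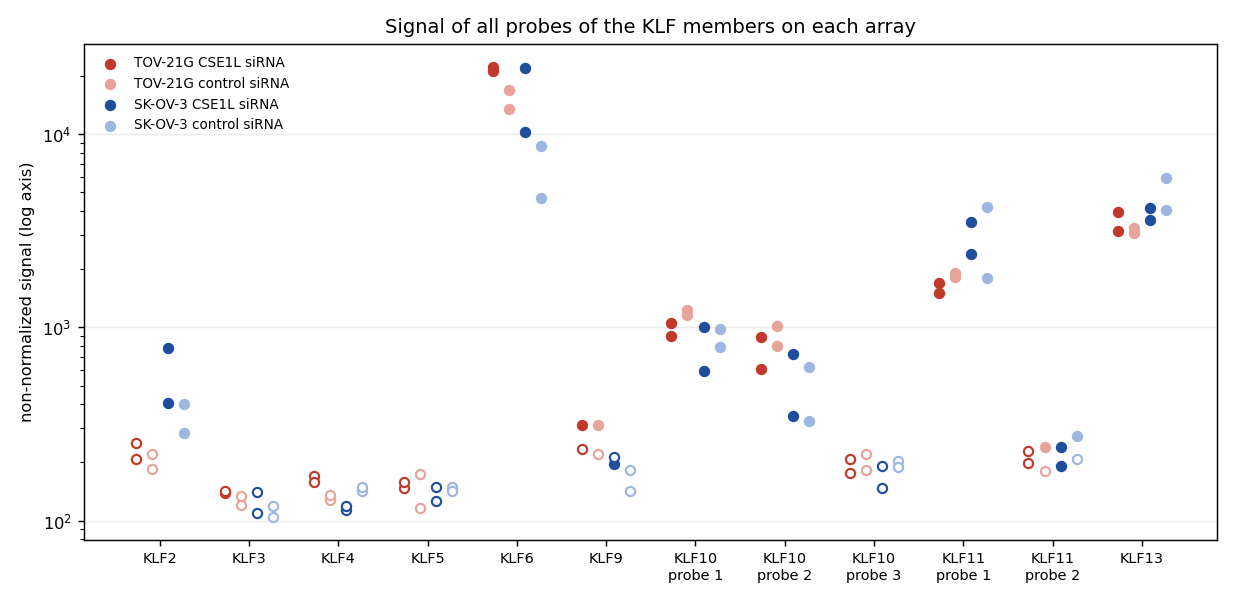
Raw bead signal (vertical axis, log scale) of all 12 member probes on the 8 arrays, with open symbols where the detection p was 0.01 or more. The probes for KLF3, KLF4 and KLF5 and 1 KLF10 probe were open on all 8 arrays, with signals from 104 to 220.

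In the fit over all genes, 0 of the 6 tested members passed the limma threshold of 0.05 on the adjusted p-value after silencing in TOV-21G, where 3.17% of all genes tested did, and 0 of 6 in SK-OV-3, where 0.0107% did. Below 0.05 before adjustment stood 0 of 6 in TOV-21G, against 19.9% of all genes, and 3 of 6 in SK-OV-3, against 10.0%. Silenced arrays lay entirely above the controls for 1 of 6 members in TOV-21G (KLF6), against 24.1% of all genes, and for 3 of 6 in SK-OV-3 (KLF2, KLF6 and KLF9), against 21.1%. They lay entirely below for 1 of 6 in TOV-21G (KLF10), against 24.8%, and for 0 of 6 in SK-OV-3, against 21.2%. Nothing is read from these counts, because the members were chosen with the same contrasts in view.

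For the difference between the lines in the silencing change, limma called 0 of 6 members and 0% of all genes, with 2 of 6 members and 10.1% of all genes at an unadjusted p under 0.05. These counts support nothing about the members, because this difference is made of the silencing changes that chose them. KLF2 and KLF9 were below detection in at least 1 group, so their fitted differences of -1.18 and -1.24 include signal below detection. The remaining differences, TOV-21G minus SK-OV-3, were -0.38 for KLF10 (SE 0.29), -0.61 for KLF11 (SE 0.42) and 0.28 for KLF13 (SE 0.31). Each of these moved when 1 array was left out: KLF11 was -1.03 without SK-OV-3 control siRNA replicate 1 and -0.19 without replicate 2, and KLF13 was 0.47 without TOV-21G CSE1L siRNA replicate 1 and 0.085 without replicate 2. The KLF10 value was -0.56 without SK-OV-3 CSE1L siRNA replicate 1 and -0.20 without replicate 2. The other detected probes gave -0.84 for KLF10 and -0.04 for KLF11, the last with TOV-21G CSE1L siRNA below detection.

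**Figure D3:**
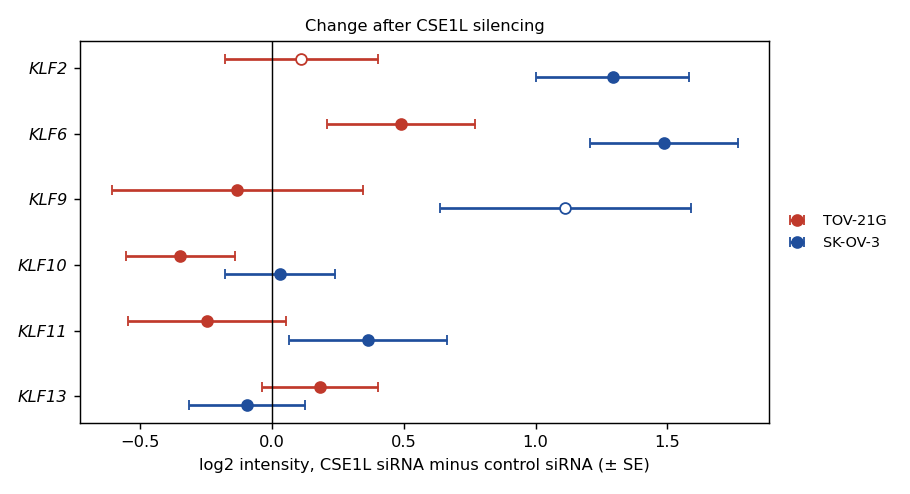
Log2 change of each tested member after CSE1L siRNA relative to control siRNA (horizontal axis), in TOV-21G and in SK-OV-3, with bars of 1 SE from the limma fit and open symbols where a group was below detection. KLF6 lay right of 0 in both lines, at 0.49 in TOV-21G and 1.49 in SK-OV-3, and KLF10 lay left of 0 in TOV-21G, at -0.35.

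The lines were then set against each other under the same siRNA, which asks how the members' levels differ between TOV-21G and SK-OV-3. Under control siRNA, limma called 4 of the 6 tested members, against 33.8% of all genes tested: KLF6 and KLF9 were higher and KLF2 and KLF13 lower in TOV-21G. Under CSE1L siRNA it called 2 of 6, against 39.8% of all genes, and KLF2 and KLF11 were lower in TOV-21G. A member that passed the detection filter only through the line where it was high, as KLF2 did, had to differ, so the counts support nothing about the family. TOV-21G and SK-OV-3 arrays did not overlap for 6 of 6 members under control siRNA, against 68.5% of all genes, and for 3 of 6 under CSE1L siRNA, against 71.2%.

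KLF2 was at least 5.74-fold lower in TOV-21G than in SK-OV-3 under CSE1L siRNA (fitted log2 difference -2.77, SE 0.29) and at least 2.35-fold lower under control siRNA (-1.59, SE 0.29). It was detected on 4 arrays, all SK-OV-3, so it entered the test through that line alone and no p-value is given. These bounds set the SK-OV-3 mean against the lowest signal among probes detected on each TOV-21G array, or the KLF2 signal itself where that was higher, and hold for this processing only. On the authors' normalized values the fitted differences were -1.44 under CSE1L siRNA and -0.67 under control siRNA.

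KLF6 was 2.42-fold higher in TOV-21G under control siRNA, with means of 13.82 in TOV-21G and 12.55 in SK-OV-3 (log2 difference 1.28, SE 0.28, limma adjusted p = 0.00983). The call was lost without SK-OV-3 control siRNA replicate 2, where the difference was 1.07 (limma adjusted p = 0.0640). Under CSE1L siRNA the means were 14.31 in TOV-21G and 14.03 in SK-OV-3, overlapping, and the difference was 0.28 (SE 0.28, limma adjusted p = 0.464). It became -0.08 without SK-OV-3 CSE1L siRNA replicate 1 (limma adjusted p = 0.860). The order of the groups for KLF6 was TOV-21G CSE1L siRNA, SK-OV-3 CSE1L siRNA, TOV-21G control siRNA and SK-OV-3 control siRNA, and only the last stood apart from its neighbour.

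KLF11 was 2.35-fold lower in TOV-21G under CSE1L siRNA, with means of 10.41 in TOV-21G and 11.65 in SK-OV-3 (log2 difference -1.23, SE 0.30, limma adjusted p = 0.0132). The call was lost without TOV-21G CSE1L siRNA replicate 1 (limma adjusted p = 0.0615), SK-OV-3 CSE1L siRNA replicate 1 (0.0525) or SK-OV-3 CSE1L siRNA replicate 2 (0.0653), and by the gene's other probe, below detection in TOV-21G with CSE1L siRNA, it was at least 1.17-fold lower there (0.172). Under control siRNA the difference was -0.62 (SE 0.30, limma adjusted p = 0.149). That value passed the threshold without SK-OV-3 control siRNA replicate 2, at -1.05 (limma adjusted p = 0.0328).

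KLF13 was 1.62-fold lower in TOV-21G under control siRNA, with means of 11.47 in TOV-21G and 12.17 in SK-OV-3 (log2 difference -0.70, SE 0.22, limma adjusted p = 0.0422), and the call held in 8 of 19 alternatives. Leaving out any 1 of 6 arrays, all but the TOV-21G CSE1L siRNA arrays, ended it (limma adjusted p = 0.0606 to 0.161). Under CSE1L siRNA KLF13 differed by -0.42 (SE 0.22, limma adjusted p = 0.169). KLF9 was at least 1.19-fold higher in TOV-21G under control siRNA. It was below detection in SK-OV-3 with control siRNA and entered the test through the other groups, so no p-value is given. The call held in 7 of 18 alternatives. It failed without TOV-21G control siRNA replicate 2, SK-OV-3 CSE1L siRNA replicate 1 or replicate 2, or SK-OV-3 control siRNA replicate 1 or replicate 2. The fitted log2 difference was 1.05 to 1.87 without 1 array.

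KLF10 did not pass in either comparison of the lines by the probe used for the gene, at 0.06 under CSE1L siRNA (SE 0.21, limma adjusted p = 0.854) and 0.43 under control siRNA (SE 0.21, limma adjusted p = 0.146). Its other detected probe gave 0.34 under CSE1L siRNA (limma adjusted p = 0.549) and 1.18 under control siRNA (limma adjusted p = 0.0618). KLF9 under CSE1L siRNA differed by 0.23 (SE 0.48, limma adjusted p = 0.736). In the order of group means, KLF2 ran from SK-OV-3 CSE1L siRNA through SK-OV-3 control siRNA to both TOV-21G groups, each step apart except that between the TOV-21G groups. For KLF11 and KLF13 both SK-OV-3 groups overlapped each other and stood above both TOV-21G groups, which also overlapped.

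**Figure D4:**
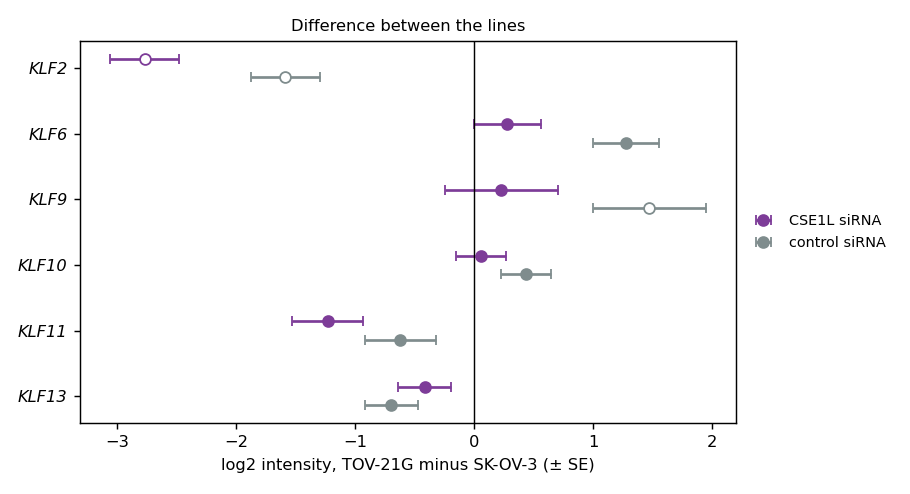
Log2 difference of TOV-21G minus SK-OV-3 for each tested member under CSE1L siRNA and under control siRNA (horizontal axis), with bars of 1 SE from the limma fit and open symbols where a group was below detection. KLF2 lay furthest left at -2.77 under CSE1L siRNA and -1.59 under control siRNA, and KLF6 lay right of 0 at 0.28 and 1.28.

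The named gene whose log2 signal tracked each member most closely over the 8 arrays was OPRPN for KLF2 (Pearson r = 0.990), MPND for KLF6 (0.956), FILIP1L for KLF9 (0.982), ARHGAP19 for KLF10 (0.945), ADGRA2 for KLF11 (0.981) and ZNF234 for KLF13 (0.976). These were the highest correlations among all named genes tested, over arrays that share 2 lines and 2 siRNAs, and are given as a description. Between members, in a selection of the pairs, r was 0.90 for KLF2 with KLF11, 0.71 for KLF6 with KLF9 and -0.81 for KLF10 with KLF13. KLF2 was detected on 4 arrays, all SK-OV-3, and KLF9 on 3, so their correlations include signal below detection.

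Genes known to act with the family were counted in the same fit. Other KLF and SP factors had 6 tested genes of 17 listed, and limma called 0 in either line after silencing. Their median log2 change was -0.11 in TOV-21G and 0.12 in SK-OV-3, where the medians over all genes tested were 0.00 and -0.01. SP1, the general GC-box activator, was at 8.52 and 8.60 in TOV-21G with CSE1L siRNA, against 9.72 and 9.23 with control siRNA (log2 change -0.92, SE 0.27, limma adjusted p = 0.120). SP2 had a change of -0.52 in TOV-21G (SE 0.27, limma adjusted p = 0.342). KLF8, a repressor of CDH1, was at least 1.68-fold higher in silenced SK-OV-3 cells than in the controls, which were below detection (limma adjusted p = 0.494). That bound holds for this processing only, since the fitted log2 change was as low as 0.43 over the alternatives. KLF12 had a change of 0.30 in SK-OV-3 (SE 0.46, limma adjusted p = 0.881).

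Co-regulators that KLFs recruit, such as the SIN3, HDAC and CtBP proteins, had 10 tested genes, with 0 called after silencing in either line. Their median was -0.19 in TOV-21G and 0.00 in SK-OV-3. In TOV-21G the smallest p-values were those of SIN3B, at 0.65 (SE 0.25, limma adjusted p = 0.201), and HDAC1, at -0.62 (SE 0.26, limma adjusted p = 0.235). In SK-OV-3 they were those of KAT2A, at -0.35 (limma adjusted p = 0.752), and SIN3A, at 0.25 (limma adjusted p = 0.754).

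Upstream regulators had 11 tested genes of 15 listed, with 0 called: the kinases MAP2K5 and MAPK7, MEF2A and MEF2D, the TGF-beta receptor TGFBR2, SMAD2, SMAD3 and SMAD4, and the factors FOXO1, FOXO3 and EGR1. Their medians were 0.19 in TOV-21G and 0.24 in SK-OV-3. MEF2D, a MEF2 factor, had a change of 0.61 in TOV-21G (SE 0.24, limma adjusted p = 0.217) and 0.59 in SK-OV-3 (SE 0.24, limma adjusted p = 0.473). SMAD3, which carries the TGF-beta signal, had a change of 0.81 in SK-OV-3 (SE 0.25, limma adjusted p = 0.336), and MEF2A had one of 0.35 in TOV-21G (SE 0.23, limma adjusted p = 0.469).

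Ubiquitin ligases that target KLF proteins had 4 tested genes, with 0 called and medians of 0.13 in TOV-21G and 0.00 in SK-OV-3. BTRC had a change of 0.79 in TOV-21G (SE 0.32, limma adjusted p = 0.225), and FZR1 was below detection there in both groups. In SK-OV-3, FBXW7, a ligase for KLF5 and KLF2, had a change of -0.21 (SE 0.29, limma adjusted p = 0.869) and FZR1 one of 0.06 (SE 0.28, limma adjusted p = 0.961). Transcript levels say nothing on the KLF proteins, which were not measured.

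Known KLF targets had 11 tested genes of 22 listed, with medians of 0.10 in TOV-21G and 0.21 in SK-OV-3, and limma called 1 in TOV-21G and 0 in SK-OV-3. The call was CDH1, which encodes E-cadherin. CDH1 was at 5.85 and 6.07 in TOV-21G with CSE1L siRNA, against 7.57 and 7.99 with control siRNA, and at least 2.44-fold lower (limma adjusted p = 0.0176). It was detected only on the TOV-21G control arrays and so entered the test through the group where it was high, and nothing is read from its call. Leaving out either control array took it out of the test, and the call was lost without TOV-21G CSE1L siRNA replicate 2 (limma adjusted p = 0.0794). TXNIP, a thioredoxin inhibitor, was at 8.08 and 7.72 in TOV-21G with CSE1L siRNA, against 6.35 and 5.86 with control siRNA, at least 2.66-fold higher (limma adjusted p = 0.0925). With the experiment number as a block the limma adjusted p for TXNIP was 0.0237. The weakest fitted log2 changes over the alternatives were 0.83 for TXNIP and -0.79 for CDH1, so both bounds hold for this processing only.

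CCND1, the cyclin D1 gene, averaged 12.89 in SK-OV-3 with CSE1L siRNA, against 14.23 with control siRNA. Both silenced arrays lay below both controls, with a change of -1.34 (SE 0.22, limma adjusted p = 0.132). It passed with no background correction (limma adjusted p = 0.0342) and with a trend and robust spread (0.0117). CCNE1, the cyclin E1 gene, had a change of -0.89 in SK-OV-3 (SE 0.26, limma adjusted p = 0.303).

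**Figure D5:**
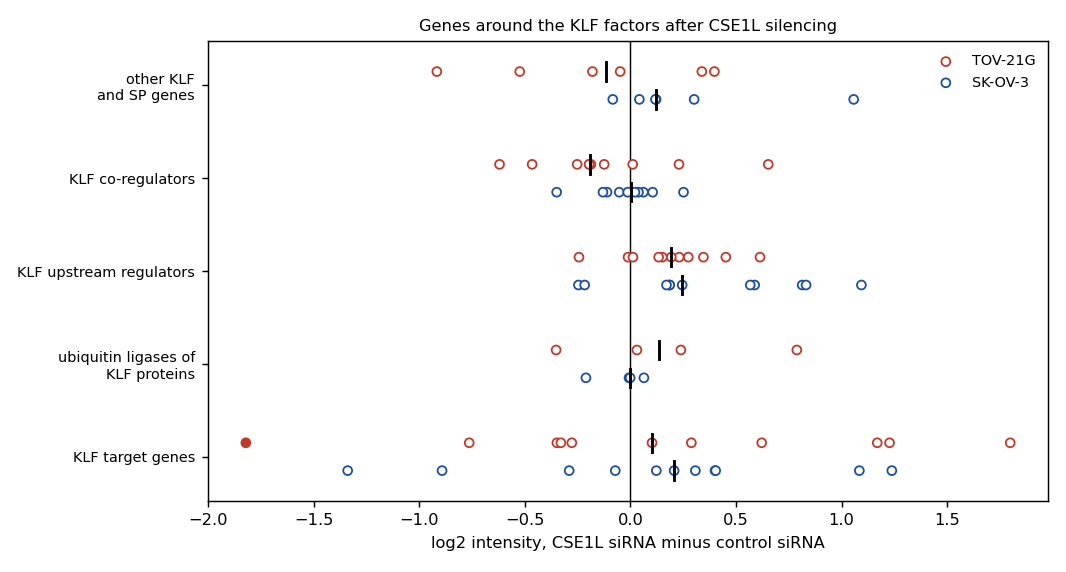
Log2 change after CSE1L siRNA relative to control siRNA (horizontal axis) of the tested genes of each KLF-related list, in TOV-21G and in SK-OV-3, with the list median as a line and filled dots for genes called by limma. CDH1 in TOV-21G was the 1 filled dot, and the upstream regulators had medians of 0.19 in TOV-21G and 0.24 in SK-OV-3.

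Between the lines, SMAD3 was higher in TOV-21G under both siRNAs, by 1.40 under CSE1L siRNA (SE 0.25, limma adjusted p = 0.00347) and by 1.94 under control siRNA (SE 0.25, limma adjusted p = 0.000759), and each call held in 19 of 19 alternatives. SP2 was lower in TOV-21G by the same comparison, at -1.88 under CSE1L siRNA (SE 0.27, limma adjusted p = 0.00113) and -1.24 under control siRNA (SE 0.27, limma adjusted p = 0.00985). The control siRNA call for SP2 was lost without TOV-21G control siRNA replicate 2 (limma adjusted p = 0.0678). Of the 11 tested targets, limma called 6 higher and 2 lower in TOV-21G under CSE1L siRNA, where 39.8% of all genes were called in either direction, and 6 higher and 3 lower under control siRNA, where 33.8% were. NOS3, ENG, CDH1 and THBD were detected in 1 line only and entered the test through it, so these counts support nothing about the targets. CDKN1A, also on the target list, was higher in TOV-21G by 5.57 under CSE1L siRNA, a call that held in 19 of 19 alternatives. NOS3, an endothelial target of KLF2, was below detection in SK-OV-3 and at least 10.3-fold higher in TOV-21G under CSE1L siRNA and at least 9.23-fold higher under control siRNA. THBD, another endothelial target, was below detection in TOV-21G and at least 2.18-fold lower there under CSE1L siRNA and at least 2.30-fold lower under control siRNA. The weakest fitted log2 differences for NOS3 over the alternatives were 2.60 under CSE1L siRNA and 2.61 under control siRNA. For THBD they were -1.11 under CSE1L siRNA and -0.95 under control siRNA, so these bounds hold for this processing only. KLF2 was itself below detection in TOV-21G.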

How the data were processed

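RNA of 2 cell lines was measured on 8 Illumina arrays. Per the file headers, each probe and array had a non-normalized bead intensity and a detection p-value, as deposited. BeadStudio 2 is the software in the submitters' processing notes. Another deposited table gave intensities after a normalization by the authors that is not given in the sources used here, and its probe order equalled that of the signals on each array (Spearman rho 1). No genome build is named for the arrays, so no probe positions are given, and promoter sequences and their positions are those of RefSeq GRCh38.p14. No pair of arrays held equal signals.

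With limma 3.58.1 in R 4.3.3, background was removed by normexp with an offset of 16 and the detection p-values, then signals were quantile normalized and log2 transformed. Probes with detection p below 0.01 on at least 2 arrays were kept (10888), each symbol by its probe with the highest mean, which left 9377 tested, made of 8373 named genes and 1004 probes without a symbol. limma fitted 4 group means to 8 arrays (4 residual and 3.87 prior degrees of freedom), with Benjamini-Hochberg adjustment over all tested and a threshold of 0.05. SE is that of the fit. A probe with detection p of 0.01 or more on both arrays of a group has only a bound there, which holds for this processing only. The number of arrays limits the precision. Python 3.11.15 with matplotlib 3.10.9 drew the figures, and the fit was tested on simulated data.

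The members and gene lists were chosen with earlier results of these data known. Named were CSE1L, all members with every probe, up to 4 genes per list and comparison (smallest adjusted p past the threshold, or the 2 smallest p), and the closest gene to each member. The text gives a selection of these for the comparisons of the lines. Alternatives were median scaling, an offset of 50, no background correction, the authors' values, no detection filter, detection on all 8 arrays, all probes separately, a robust fit with a trend, a threshold of 0.01, the experiment number as a block, only the 4 arrays compared, each array left out in turn and, chosen after seeing the data, the other detected probes of KLF10 and KLF11.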

Additional observations from a re-analysis of the deposited data

Results flagged for a closer look

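Among the member probes and the list genes named by rule for the silencing comparisons, there were 5 genes for which every same-numbered pair of arrays moved one way in TOV-21G and the opposite way in SK-OV-3. These differences of log2 changes, TOV-21G minus SK-OV-3, were taken by that pattern and were not tested by it. KLF4 differed by 0.62 (0.6176), with silenced minus control values of 0.11 and 0.31 in TOV-21G and -0.28 and -0.53 in SK-OV-3, but its probe was detected on 0 of 8 arrays. CDH1 differed by -2.22, with -1.72 and -1.92 in TOV-21G and 0.36 and 0.45 in SK-OV-3, and was detected on 2 arrays, both TOV-21G controls. SIN3A, the co-repressor that KLF10 and KLF11 bind, differed by -0.72, with -0.37 and -0.56 in TOV-21G and 0.37 and 0.13 in SK-OV-3. MEF2A differed by 0.56, with 0.63 and 0.06 in TOV-21G and -0.30 and -0.13 in SK-OV-3. FBXW7 differed by 0.45, with 0.39 and 0.08 in TOV-21G and -0.21 and -0.21 in SK-OV-3. In the fit over all genes, limma adjusted p-values for these differences were 0.165 for CDH1, 0.442 for SIN3A, 0.621 for MEF2A and 0.780 for FBXW7.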

How the results depend on the processing

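Pairs of arrays with the same experiment number had deviations that correlated at 0.561 in TOV-21G and 0.126 in SK-OV-3 within a line, and at -0.183 under CSE1L siRNA and -0.137 under control siRNA between the lines. The numbers may thus pair arrays within a line, from 1 correlation each. With the replicate block, the genes called after silencing were 590 in TOV-21G (237 higher, 353 lower), against 297 without it, and 0 in SK-OV-3 (1439 at an unadjusted p under 0.05), against 1, while limma called 2 KLF targets in TOV-21G (CDH1 and TXNIP) and, between the lines under control siRNA, 2 members. It changed no other count of members or lists by over 1.5 times. For TOV-21G the count of genes was 527 with no background correction, 515 with a trend and robust spread, 0 at a threshold of 0.01 and 0 with only 4 arrays (1638 unadjusted), and 0 to 182 without 1 array. Under median scaling it split into 67 higher and 230 lower, against 102 and 195. For SK-OV-3 it was 2 with median scaling, 9 with no background correction, 3 with an offset of 50, 13 on the authors' values, 0 without the filter (1527 unadjusted), 4 with detection on all 8 arrays, 0 with all probes, 11 with a trend and robust spread, 0 at a threshold of 0.01, 0 with only 4 arrays (943 unadjusted) and 0 to 0 without 1 array. For the difference between the lines it was 5 with no background correction, 10 on the authors' values, 1 with detection on all 8 arrays and 11 with a trend and robust spread, against 0. KLF targets called in TOV-21G numbered 0 with detection on all 8 arrays, at a threshold of 0.01 or with only 4 arrays, and 0 to 2 without 1 array. In SK-OV-3 they numbered 1 (CCND1) with no background correction or with a trend and robust spread, and members called there numbered 1 of 6 (KLF6) with a trend and robust spread, against the 11 of 9377 genes given above, from which nothing is read since silencing changes chose the members. Between the lines under CSE1L siRNA, genes called were 2449 with detection on all 8 arrays, 2294 at a threshold of 0.01 and 2538 to 3608 without 1 array, and members called were 1, 1 and 1 to 2. Under control siRNA genes called were 1996, 1874 and 2141 to 3247, and members called were 2, 2 and 2 to 4, and 2 without the filter. Signs turned for the following values, none of them called. Between the lines under CSE1L siRNA, the range without 1 array was -0.45 to 0.90 for KLF9, -0.080 to 0.63 for KLF6 and -0.12 to 0.23 for KLF10. After silencing in SK-OV-3 it was -0.19 to 0.32 for FZR1 (-0.097 with median scaling), -0.44 to 0.014 for FBXW7 and -0.43 to 1.03 for KLF12. CSE1L in TOV-21G had an adjusted p of 0.0968 with only 4 arrays. Among the members after silencing, signs also turned without 1 array for KLF10, KLF11 and KLF13 in SK-OV-3, with ranges of -0.15 to 0.21, -0.056 to 0.78 and -0.21 to 0.021, and for KLF2 (below detection), KLF9 and KLF13 in TOV-21G, with -0.027 to 0.25, -0.81 to 0.54 and -0.0090 to 0.37. The causes were not tested, and fewer arrays were fitted where 1 or more were left out. Slide as a block was left out, since no slide is given. Signal near background limits KLF2 and KLF9, whose changes shrank without background correction.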
